A study of Mus musculus with 5 samples.

Results

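Idi1, Fdps, Fdft1 and Sqle encode enzymes of cholesterol synthesis, and their transcripts were followed in the mouse cerebellum at 5 ages, from embryonic day 18 (E18) through postnatal day 7 (P7), P14 and P21 to the adult at P56. They were chosen by name and found as the probes whose only gene symbol is one of the 4: each gene had 1 probe, so they make up 4 of the 773 genes named by the 787 single-symbol probes, in a table of 897 probes. Total RNA of whole cerebellum was hybridised to arrays, and each age is 1 column holding the mean of 2 array experiments. The labels give no strain, sex, treatment or number of animals, and name no control other than the earlier ages. With 1 column per age there is no replicate sample and no test, so every difference below describes these columns, and the small number of arrays limits its precision.

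The deposited values are taken to be percentages of the highest age a probe reached, averaged over the 2 experiments, because none exceeds 100 and 420 probes stand at exactly 100 at 1 age. The scale lets an enzyme be compared with itself at other ages, not with another enzyme. A gene is said to have fallen or risen when it differed by 2-fold or more; smaller differences are given as values. In whole tissue, fewer cells of a type and less RNA per cell cannot be told apart. Because of the scale the labelled tissue cannot be checked by absolute levels. Probes for the cerebellar genes Gabra6, Pcp2 and Calb1 were in the table, with their highest values at P56, P14 and P14. Probes for Sst, Penk and Npy, listed for forebrain neurons, were there too, highest at E18, P56 and P21. The presence of a probe and its highest age therefore do not check the tissue.

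Cholesterol is built from acetyl-CoA through mevalonate and isoprenoid units. Idi1 encodes isopentenyl diphosphate isomerase, which interconverts the 5-carbon isoprenoid units. Fdps encodes farnesyl diphosphate synthase, which joins them into farnesyl diphosphate, the branch point to sterols and to protein prenylation. Fdft1 encodes squalene synthase, the first enzyme committed to sterols, and Sqle encodes squalene epoxidase, which oxidises squalene ahead of ring closure and is a slow, regulated step. The brain makes its own cholesterol because lipoproteins of the blood hardly cross the blood-brain barrier, and the sheaths that oligodendrocytes wrap around axons take up much of it. Synthesis in the brain is known to be high while myelin forms and low in the adult.

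Transcription of these genes is known to be driven by sterol regulatory element binding proteins together with factors that bind CCAAT boxes and GC boxes. A promoter was at hand for 1 of the 4, Idi1; those of Fdps, Fdft1 and Sqle were not analysed here. The 250 bases before the Idi1 start, from RefSeq (GRCm38.p6, chr13:8885356-8885605, plus strand), are shown to let a reader see which of these letters are present. A link between them and the level of Idi1 across the ages was not tested. Capitals mark CCAAT and GGGCGG, both found on the reverse strand (as ATTGG and CCGCCC):

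Idi1: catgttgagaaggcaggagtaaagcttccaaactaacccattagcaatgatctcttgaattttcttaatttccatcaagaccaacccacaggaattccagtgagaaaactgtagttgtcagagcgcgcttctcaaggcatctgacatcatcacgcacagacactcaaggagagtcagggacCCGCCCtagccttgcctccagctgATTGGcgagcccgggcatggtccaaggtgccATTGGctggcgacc

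The 2 CCAAT matches begin 45 and 14 bases before the start, and the GGGCGG match begins 69 bases before it. On either strand, CCAAT occurred at least once in 33.8% and at least 2 times in 10.1% of 32851 RefSeq promoter windows of the same length, and GGGCGG in 32.7%. TCACNCCAC, the core of the sterol regulatory element known from the LDL receptor promoter with 1 letter left free, occurred in 1.05% of windows on either strand and not in this one, which says only that these letters are not there. The matches are a description of letters and not of binding.

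In the deposited values all 4 enzymes were high around birth and lowest at P56; with either scaling of the columns the lowest age of Fdps was P7. The median of the 4 was 96.0% at E18, 82.7% at P7, 64.4% at P14, 52.7% at P21 and 39.7% at P56. At P56 the 4 lay between 22.6% and 44.0%. Over all 897 probes the median was 84.5% at E18, 82.8% at P7, 55.5% at P14, 42.25% at P21 and 42.0% at P56. High values around birth were thus not particular to the enzymes. P56 was the lowest age of 298 of the 897 probes (33.2%). Sqle and Fdft1 were lower at every step, as were 114 probes in all (12.7%), while Idi1 and Fdps each had 1 step in the other direction.

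**Figure D1:**
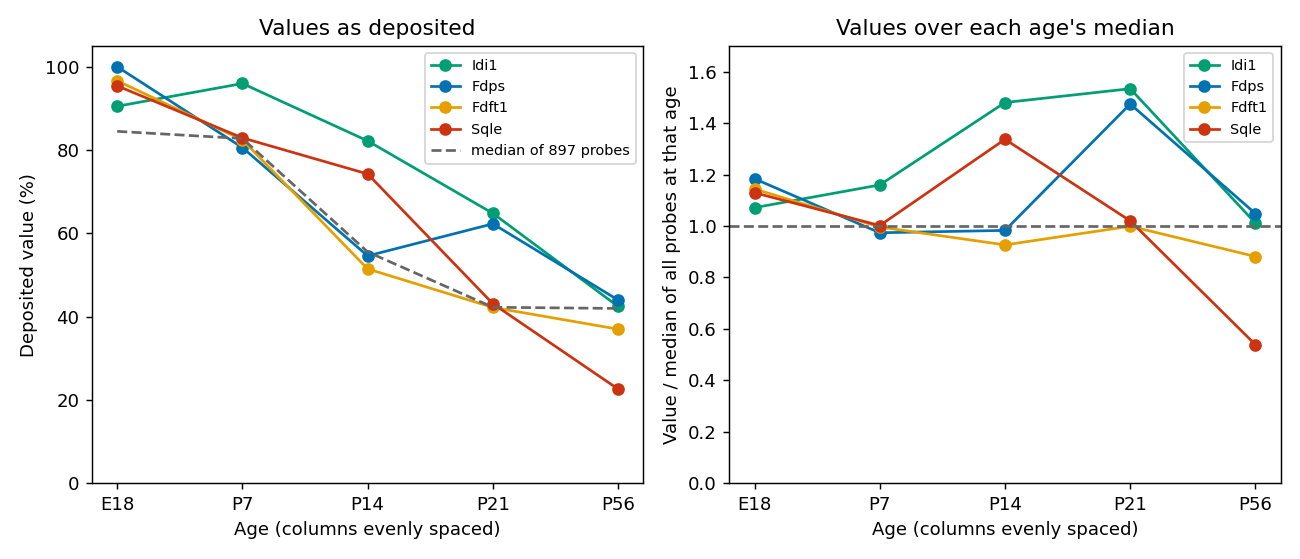
Left, the deposited value (percent) of Idi1, Fdps, Fdft1 and Sqle at each age, with the median of the 897 probes dashed. Right, the same values divided by the median of all probes at that age; there Idi1 and Fdps are highest at P21 (1.53 and 1.47), Sqle at P14 (1.34) and Fdft1 at E18 (1.14).

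Sqle had the steepest profile, at 95.4% at E18, 82.9% at P7, 74.3% at P14, 43.1% at P21 and 22.6% at P56. As deposited it was higher at the 3 earlier ages than at P21 and P56. Against the median probe of each age, Sqle was 1.002 times that probe at P7, 1.02 times at P21 and 0.539 times at P56. Fdft1, the step before it, stood at 96.6% at E18, 82.4% at P7, 51.5% at P14, 42.2% at P21 and 37.0% at P56, so its largest step came between P7 and P14. Fdps stood at 100% at E18, 80.6% at P7, 54.6% at P14, 62.3% at P21 and 44.0% at P56, with a higher value at P21 than at P14. Idi1 was highest at P7 and stood at 90.5% at E18, 96.0% at P7, 82.2% at P14, 64.8% at P21 and 42.4% at P56.

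How far neighbouring levels differ can be set only against the gap between 2 probes of 1 gene, which 14 genes of the table have; it leaves out variation between animals. Its median ran from 0.24 to 0.47 (log2) over the pairs of ages, and each difference was set against the median of its own pair. Many probe pairs of 1 gene exceed a median, so exceeding it does not by itself separate 2 ages. For Sqle, P14 over P21 (0.79) and P21 over P56 (0.93) exceeded it, and E18 over P7 (0.20) and P7 over P14 (0.16) did not. For Fdft1 only P7 over P14 (0.68) did. For Idi1 only P21 over P56 (0.61) did, so its levels at P7, E18, P14 and P21 were not separated one from the next by more than this gap. For Fdps, E18 over P7 (0.31, gap 0.24), P7 over P21 (0.37, gap 0.35) and P14 over P56 (0.31, gap 0.24) narrowly exceeded it. For Fdps P21 over P14 (0.19) did not.

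The 2 experiments behind each mean are not given singly, but the percent scale bounds them. If each lies between 0 and 100, a difference of more than 50 points between means needs both experiments to differ in the same direction. At P56 Sqle was 72.8 points below E18, so that each experiment had at least a 2.01-fold difference. For Fdft1 (59.7 points) and Fdps (56.0 points) the least difference in each experiment was 1.26-fold and 1.14-fold. Idi1 differed by 48.1 points, which allows 1 experiment to have shown no difference. On the same reading, Fdps at 100% had its highest value at E18 in both experiments, whereas Sqle, Fdft1 and Idi1, which never reach 100%, had different highest ages in the 2 experiments.

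In the adult against the embryonic cerebellum, P56 against E18, all 4 enzymes fell, beside 471 of the 897 probes (52.5%). Sqle was 4.22-fold lower at P56, with a log2 ratio of -2.08, and 137 probes (15.3%) were at least as far down. Fdft1, Fdps and Idi1 were 2.61-fold, 2.27-fold and 2.13-fold lower, with log2 ratios of -1.39, -1.18 and -1.09. The median of the 4 was -1.29, against -1.07 for all probes, so Fdft1, Fdps and Idi1 lay within 0.32 of the median probe and Sqle 1.01 below it. With a 3-fold threshold 1 enzyme, Sqle, remained lower, beside 26.1% of probes. When each column was divided by its median, Sqle alone of the 4 was 2-fold or more lower at P56 (-1.07), beside 16.4% of probes. With quantile normalization Sqle was again the only one (-1.37), beside 23.0% of probes.

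From E18 to P7 the enzymes differed little. The log2 ratios of P7 over E18 were -0.20 for Sqle, -0.23 for Fdft1, -0.31 for Fdps and 0.084 for Idi1, and 0 of the 4 fell, beside 2.79% of all probes. All but that of Fdps were smaller than the gap of 0.24 between probes of a gene.

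The period in which the cerebellum myelinates fastest runs from about P7 to P21, and the 4 enzymes were not higher at its end in the deposited values, although they were level or higher with columns divided by their medians. At P21, Sqle stood at 43.1%, against 82.9% at P7, and Fdft1 at 42.2%, against 82.4% at P7. Idi1 stood at 64.8% at P21, against 96.0% at P7, and Fdps at 62.3% at P21, against 80.6% at P7. The log2 ratios of P21 over P7 were -0.94, -0.97, -0.57 and -0.37, and 0 of the 4 reached 2-fold, beside 52.2% of all probes. At a 1.5-fold threshold Sqle and Fdft1 were lower, beside 64.3% of probes.

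The median of the 4 over this period, -0.76, was above the -1.03 of all probes, and its sign depended on how the columns were scaled: it was 0.21 with columns divided by their medians and 0.016 with quantile normalization. Against the median probe of each age, Fdps was 1.47 times that probe at P21 and 0.974 times at P7, and Idi1 1.53 times at P21 and 1.16 times at P7. Sqle was 1.02 times the median probe at P21 and 1.002 times at P7, and Fdft1 0.999 and 0.996 times. With quantile normalization the ratio of P21 over P7 was 0.37 for Fdps, -0.16 for Idi1, 0.024 for Sqle and 0.0073 for Fdft1. The signs for Fdps, Sqle and Fdft1 thus turned under both scalings, though Sqle and Fdft1 were then about level. The sign for Idi1 turned only with division by the medians. The table may be a selection of changing probes, and which scale stands closer to RNA per cell was not tested.

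Within the period the enzymes took different steps. At P14 Sqle stood at 74.3%, against 82.9% at P7, and Idi1 at 82.2%, against 96.0% at P7, log2 ratios of -0.16 and -0.22. Fdft1 (-0.68) and Fdps (-0.56) differed more, close to the -0.58 of the median probe. In this step 0 of the 4 fell by 2-fold, beside 24.7% of probes, and Fdft1 alone was 1.5-fold or more lower, beside 49.8%. With columns divided by their medians the ratio of P14 over P7 was 0.42 for Sqle, 0.35 for Idi1, 0.014 for Fdps and -0.10 for Fdft1. With quantile normalization it was 0.46 for Sqle, 0.053 for Idi1, 0.026 for Fdps and -0.10 for Fdft1. At P21 against P14, as deposited, it was Sqle that was lowest, at -0.79, with Idi1 at -0.34, Fdft1 at -0.29 and Fdps at 0.19. With columns divided by their medians these ratios were -0.39, 0.051, 0.11 and 0.58, so that the signs for Idi1 and Fdft1 turned; with quantile normalization that for Fdft1 turned (0.11) and that for Idi1 did not (-0.21). Again 0 of the 4 fell by 2-fold, beside 13.2% of probes, and Sqle alone was 1.5-fold or more lower, beside 34.7%.

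**Figure D2:**
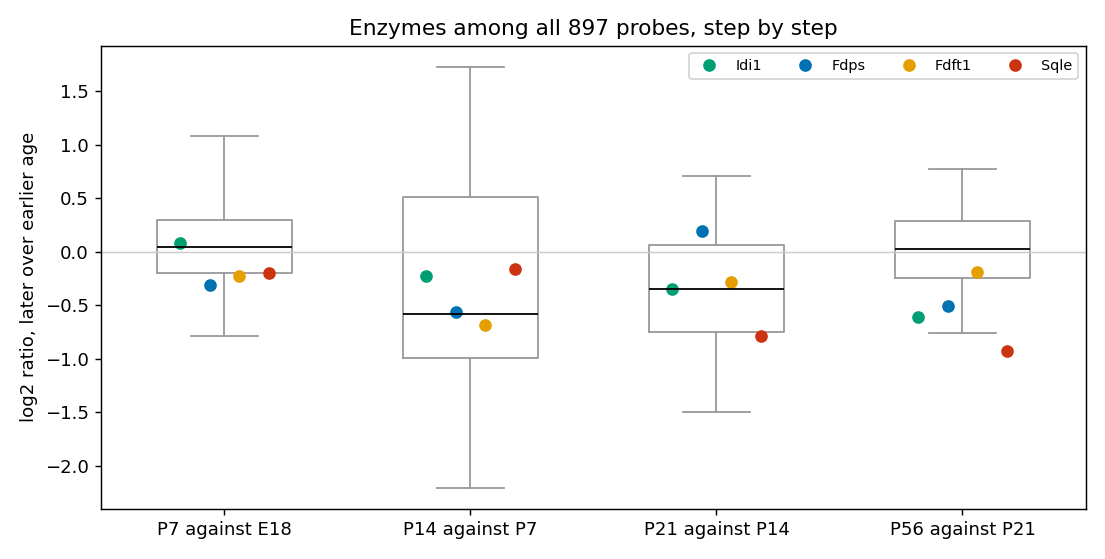
The log2 ratio of the later over the earlier age for the 4 enzymes (coloured points) in each step between neighbouring ages. Boxes show the quartiles and median of the 897 probes and whiskers their 5th to 95th percentiles; at P56 against P21 Sqle lies below the whisker and Idi1 and Fdps below the box.

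After P21 the enzymes were lower while the median probe was not. All 4 were lower at P56 than at P21, with a median log2 ratio of -0.56, while the median probe was at 0.027 and 427 of the 897 probes were lower (47.6%). Sqle stood at 22.6% at P56, against 43.1% at P21 (-0.93), and 22 probes (2.45%) were at least as far down. Idi1 stood at 42.4% at P56, against 64.8% at P21 (-0.61), with 74 probes (8.25%) as far down. Fdps stood at 44.0% at P56, against 62.3% at P21 (-0.50), with 103 probes (11.5%) as far down. Fdft1 stood at 37.0% at P56, against 42.2% at P21, and its ratio of -0.19 was within the gap between probes of 1 gene (0.37). By the 2-fold rule 0 of the 4 fell, beside 2.23% of probes, and at 1.5-fold Sqle and Idi1 did, beside 8.70%.

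The sign at P56 against P21 did not turn under either scaling. With columns divided by their medians the ratios were -0.92 for Sqle, -0.60 for Idi1, -0.49 for Fdps and -0.18 for Fdft1. With quantile normalization they were -1.05, -0.34, -0.28 and -0.16, and Sqle was then past 2-fold, beside 1.90% of probes.

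In the deposited values, the share of each enzyme's fall that came late split the 4 into pairs. Of the log2 difference between P56 and E18, 87.3% of that of Idi1 and 82.6% of that of Sqle came after P14, against 34.4% for Fdft1 and 26.3% for Fdps. The median over the 471 probes that fell was 37.8%, and 25 of them (5.31%) had as small a share behind them by P14 as Sqle. The pairs do not follow the order of the pathway, in which Idi1 acts first and Sqle last. The ratios of P56 over P14 were -1.72 for Sqle, -0.95 for Idi1, -0.48 for Fdft1 and -0.31 for Fdps. With columns divided by their medians they were -1.31, -0.55, -0.072 and 0.093, so the order held and the sign for Fdps turned. On that scale the ratios of P56 over E18 were -0.083 for Idi1, -0.18 for Fdps and -0.38 for Fdft1. These are too small to divide into shares, so the shares describe the deposited values only.

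**Figure D3:**
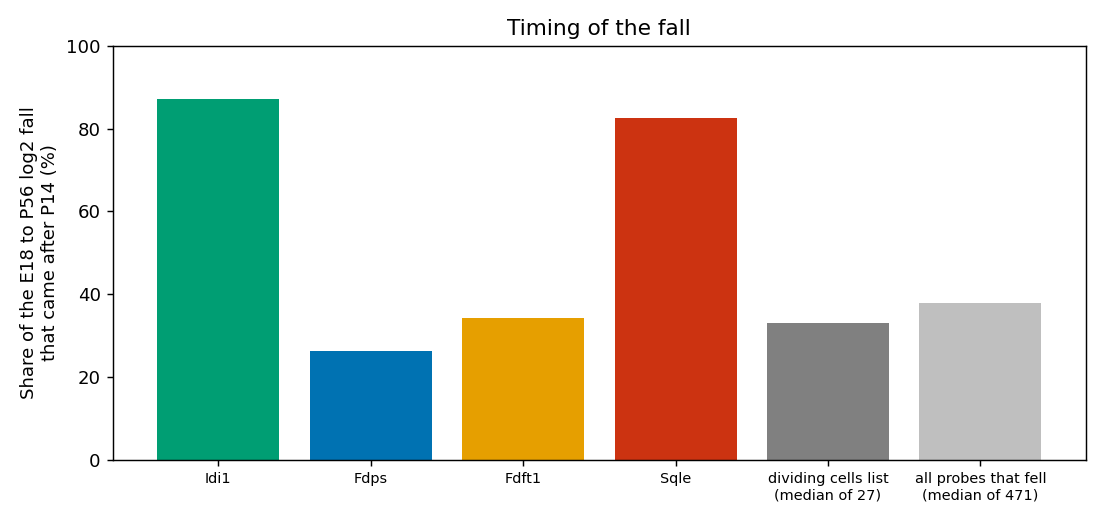
Percent of the log2 difference between P56 and E18 that came after P14, for each enzyme and as the median of 27 dividing cells genes and of the 471 probes that fell 2-fold or more. Values are as deposited, and Idi1 (87.3%) and Sqle (82.6%) stand above the rest.

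Of 22 genes listed for sterol synthesis, the 4 enzymes included, 18 had no probe with a single symbol in the table, and 0 of 13 genes of prenyl transfer had one. Of 14 genes of sterol regulation 1 was measured, Srebf1, which encodes a transcription factor of lipid synthesis that favours fatty acid genes. Srebf1 stood at 62.3% at E18, 100% at P7, 35.7% at P14, 23.1% at P21 and 34.9% at P56. It fell 4.34-fold at P21 against P7, and unlike the 4 enzymes its value was higher at P56 than at P21, by 0.60 (log2).

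Of 22 genes that move sterols and lipids between cells 6 were measured. At P56 against E18 3 of the 6 rose and 1 fell, beside 22.6% and 52.5% of all probes, with a median of 1.42 (log2). Lcat, which encodes the enzyme that esterifies cholesterol on lipoproteins, stood at 95.1% at P56, against 22.5% at E18 (4.24-fold). Clu, which encodes the lipoprotein clusterin, rose 4.03-fold to 100% at P56, against 24.8% at E18, and Abca2, a lipid transporter gene of oligodendrocytes, rose 3.60-fold to 99.7% at P56, against 27.7% at E18. Pltp, a phospholipid transfer protein gene, stood at 100% at P56, against 50.6% at E18, and Apod, the apolipoprotein D gene, at 100%, against 63.9%, both within 2-fold. Lpl, the lipoprotein lipase gene, fell 4.69-fold, to 11.5% at P56, against 54.0% at E18. Scd1, the fatty acid desaturase gene and the only measured one of 24 genes of fatty acid and myelin lipid synthesis, rose 4.31-fold to 88.2% at P56, against 20.5% at E18.

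Most measured myelin genes of the same columns rose by P14, while as deposited the enzymes did not. Of 27 oligodendrocyte and myelin genes 7 were measured, and at P14 against P7 6 of them rose, beside 14.4% of all probes, with a median of 2.36 (log2), against -0.39 for the 4 enzymes. The enzyme median was 0.18 with columns divided by their medians and 0.039 with quantile normalization. Minus the myelin median it was -2.75 and -2.90 under these scalings. Mog, a protein gene of the outer myelin sheath, stood at 81.4% at P14, against 5.22% at P7, and Mag, a gene of the axon-facing sheath, at 77.2%, against 14.4% at P7. Mobp, a gene of compact myelin, stood at 48.7% at P14, against 4.63% at P7, and Cldn11, a tight junction gene of the sheath, at 82.4%, against 20.6%. Gsn, which encodes the actin-severing protein gelsolin, stood at 92.9% at P14, against 18.1% at P7, and Car2, the carbonic anhydrase 2 gene, at 50.8%, against 20.9%. Qdpr, which encodes dihydropteridine reductase, was the one that did not rise, at 52.4% at P14, against 58.3% at P7.

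At P21 against P7 the enzymes' median minus the myelin median was -2.88 (log2), and -2.74 with quantile normalization. After P21 both groups had a lower median: at P56 against P21 the myelin median was -0.73 and the enzyme median -0.56. Of the 7 myelin genes 5 were lower, beside 427 of the 897 probes (47.6%). By the 2-fold rule 0 of the 7 fell, beside 2.23% of probes. Mobp stood at 60.4% at P56, against 100% at P21, and Gsn at 40.1%, against 75.4%. Car2 and Qdpr were the exceptions, both at 100% at P56, against 73.2% and 68.7% at P21.

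**Figure D4:**
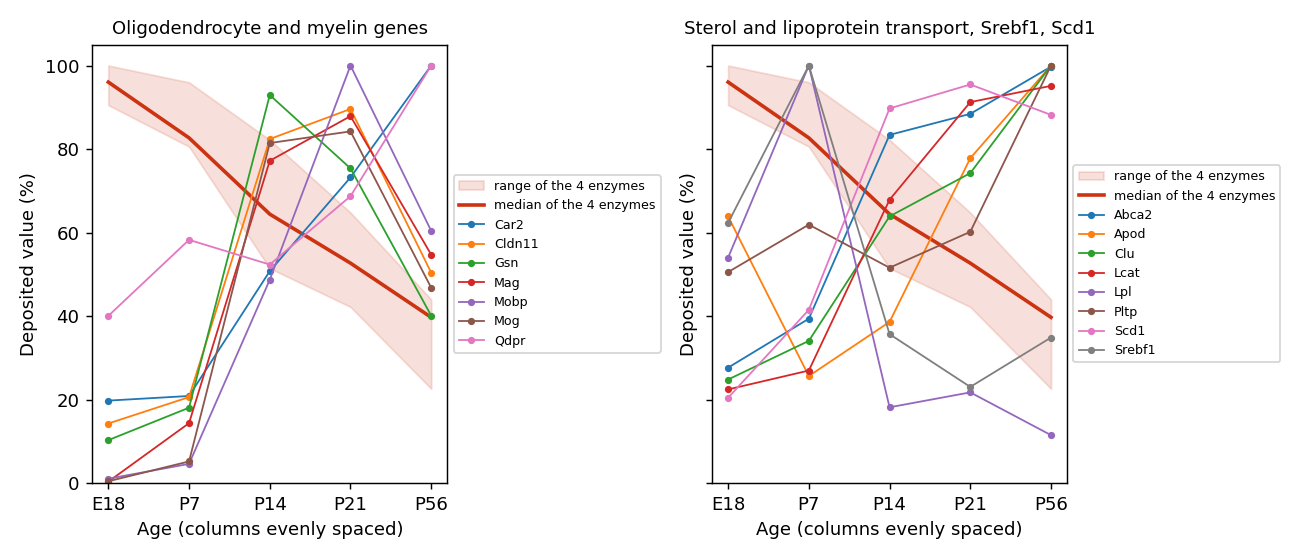
Deposited values (percent) by age for the 7 measured oligodendrocyte and myelin genes (left) and for the measured genes of sterol and lipoprotein transport with Srebf1 and Scd1 (right). The red band and line give the range and median of the 4 enzymes, whose median is 39.7% at P56, against 96.0% at E18. Of the 7 myelin genes 4 are highest at P21, beside 77 of the 897 probes (8.58%).

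Marker genes of other cells of the tissue also differed across these columns. The median value of the 27 measured of 42 dividing cells genes was 82.4% at E18, 99.7% at P7, 14.7% at P14, 6.79% at P21 and 7.85% at P56. All 27 fell at P56 against E18, beside 52.5% of all probes (median -3.39), led by Hmgb2, a chromatin protein gene, and Ncaph, a condensin subunit gene, whose values under 1% at P56 make them lower by at least 83.4-fold and at least 69.7-fold, and by Ccna2, the cyclin A2 gene, 64.3-fold lower. At P56 against P21 3 of the 27 rose and 3 fell, beside 2.68% and 2.23% of all probes, and Ccnd2, the cyclin D2 gene, and Ncaph were under 1% at both ages, which gives them no difference to read. The 6 measured of 11 mature granule cell genes had a median of 7.00% at E18, 8.21% at P7, 80.8% at P14, 91.6% at P21 and 90.2% at P56. Gabra6 and Gabrd encode GABA-A receptor subunits and had values under 1% at E18. At P56 Gabra6 was at least 99.8-fold higher, Gabrd at least 79.5-fold and Kcnj9, a potassium channel gene, 21.8-fold. Of 10 oligodendrocyte progenitor genes 1 was measured, Pdgfra, the receptor gene for platelet-derived growth factor, at 63.5% at E18, 100% at P7, 12.8% at P14, 4.82% at P21 and 16.8% at P56. At P56 against E18, 6 of 8 measured astrocyte and Bergmann glia genes rose and 2 fell, and 7 of 7 Purkinje cell genes rose. Of meninges, connective tissue and choroid plexus genes 7 of 9 fell, of endothelium and pericyte genes 3 of 4, and of granule cell progenitor genes 5 of 6. Over all probes 22.6% rose and 52.5% fell. The remaining cell type lists had fewer measured genes. Values of different probes cannot be summed on this scale, and the part of cell numbers in the enzymes' values was not tested.

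Among themselves the enzymes were only moderately alike. Over the 5 ages Pearson's r of the log2 values was 0.99 between Sqle and Idi1, 0.94 between Fdft1 and Fdps and between 0.81 and 0.87 for the other 4 pairs. The root mean square difference of the centred log2 profiles, which also weighs the size of the change, was smallest for Fdft1 and Fdps (0.21), and 43 other probes were closer to Fdps than Fdft1 was. These are descriptions over 5 shared columns in which most probes are lower at late ages.

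By that root mean square difference, the named genes closest to Sqle were Ddah2 (0.13), Efna2, an ephrin gene (0.13), and Mapk7, a kinase gene (0.18). Ddah2 stood at 100% at E18 and 25.9% at P56. Fdft1 was closest to Btf3, a translation-associated factor gene (0.058), Cct5, a chaperonin subunit gene (0.063), and Tcf12, a transcription factor gene (0.068). Fdps was closest to Rbms1, an RNA-binding protein gene (0.062), which was also higher at P21 than at P14, to Gnb1, a G protein subunit gene (0.082), and to Pafah1b2 (0.090). Idi1 was closest to Rab5c, an endosomal GTPase gene (0.10), Xpo1, the nuclear export receptor gene (0.11), and Tram1, a gene of the endoplasmic reticulum translocon (0.11). The mean of the 4 was closest to Ppp4c, a phosphatase gene (0.093), Rnps1, a splicing factor gene (0.093), and Itgb1, the integrin beta 1 gene (0.11). Ranking by Pearson's r kept 2 of the 12 neighbours of single enzymes and quantile normalization kept 6, so the neighbours depend on the measure.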

How the data were processed

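The 5 deposited columns hold percent values: per the labels each is the mean signal of 2 array experiments, and the scaling to each probe's highest age was read from the values. The scanner, background correction, normalization between arrays and choice of probes are not given in these sources. Gene symbols come from the platform's annotation; 787 of 897 probes have 1 symbol, 16 several and 94 none, and 784 of the 787 were found by gene identifier in RefSeq (GRCm38.p6) with the same symbol. No other columns were left out.

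Values under 1% (20 of 4485, in 15 probes) were set to 1%, log2 ratios were taken, and the 2 probes of a gene were averaged as logs. Differences against such a value are bounds. The 4 members, the 18 gene lists, the 2-fold rule, the rule for named genes (all measured sterol, lipid and myelin genes, the 3 most changed of 3 cell type lists, the 3 closest profiles) and the alternatives were chosen with earlier results of these data known. The P56 against P14 comparison and the bounds on single experiments were added after the values were seen. No test was possible with 1 column per age. A change of scaling was called a move when it exceeded the median gap between 2 probes of 1 gene. The calculation was tested on simulated data for P56 against E18: all 200 of 897 probes changed 4-fold were found and 0 others called. The simulated noise was chosen and not taken from these data, and 4-fold lies well past the 2-fold rule. The simulation thus checks the arithmetic and not how well differences near 2-fold are called. Python 3.11.15, numpy 2.4.6, pandas 2.3.3 and matplotlib 3.10.9 were used.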

Additional observations from a re-analysis of the deposited data

How the results depend on the processing

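Dividing each column by its median gave median log2 ratios of the 4 enzymes of -0.28 for P56 against E18, 0.18 for P14 against P7 and 0.21 for P21 against P7, with 1 enzyme (Sqle) lower by 2-fold at P56 against E18. Quantile normalization gave -0.57, 0.039 and 0.016 for the same comparisons, with 1 enzyme (Sqle) lower by 2-fold at P56 against E18 and 1 (Sqle) at P56 against P21. As deposited, 3 of the 4 enzymes were highest at E18, beside 313 of the 897 probes (34.9%). With columns divided by their medians 1 enzyme (Fdft1) was, and with quantile normalization 2 (Fdft1 and Fdps) were. The share of all probes highest at E18 was not counted under either scaling. A 3-fold threshold left 1 enzyme lower at P56 against E18, and a 1.5-fold threshold gave 1 at P14 against P7, 1 at P21 against P14, 2 at P56 against P21 and 2 at P21 against P7, where the 2-fold rule gave 0. The enzyme median minus the myelin median, -3.62 for P56 against E18, was -3.01 with quantile normalization and -2.60 with every value under the 10th percentile (20.4%) lifted to it; for P7 against E18, -1.02 as deposited, it was -0.35 and -0.22, and for P14 against P7, -2.75 as deposited, it was -2.31 with that floor, which raises myelin genes that are low at early ages. No member lies under the floor. A pseudocount of 1% moved 0 of 24 member differences by more than the gap between probes of 1 gene. The floor and leaving out probes under 1% also moved 0 of 24 each. No member value was low enough for either to change it. Dividing by medians moved 16 of 28 and quantile normalization 16 of 28. Division by medians shifts the 4 enzymes by the same amount in a comparison, so it moved whole comparisons and not single enzymes. The comparisons moved were P56 against E18, P14 against P7, P21 against P7 and P56 against P14. Why quantile normalization moved values was not tested. No paired analysis was possible because each age has 1 column. Signal over background is not in the deposited values, so what dim probes limit was not analysed here.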

Other observations

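Other lipid genes were grouped after the symbols of the table were seen. Of 3 genes of the pentose phosphate pathway, a source of the NADPH that sterol synthesis uses, all 3 fell at P56 against E18, beside 52.5% of all probes (median -1.88, against -1.07 for all probes): Pgd stood at 27.1% at P56, against 100% at E18, Pgls at 18.6%, against 82.2%, and Tkt at 42.9%, against 99.8%. At P56 against P21 their log2 ratios were 0.17 for Pgd, -0.47 for Pgls and 0.89 for Tkt. Of 7 genes of phospholipids and sterol binding 3 rose and 2 fell at P56 against E18, beside 22.6% and 52.5% of all probes. Osbpl1a, which encodes an oxysterol-binding protein relative, stood at 97.6% at P56, against 20.5% at E18, and Gpd1, a glycerol phosphate dehydrogenase gene, at 80.1%, against 9.39%. Of 4 genes of gangliosides and related lipids 1 rose at P56 against E18, beside the same 22.6%, St8sia5, a ganglioside sialyltransferase gene, at 91.3% at P56, against 10.7% at E18. Of 8 genes of fatty acid oxidation and acyl-CoA use 1 rose and 2 fell, beside the same 22.6% and 52.5%, with a median of -0.52.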
